A study of Mus musculus with 2 samples.

Results

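The synaptotagmin and Doc2 genes examined here are *Syt1*, *Syt2*, *Syt4*, *Syt5*, *Syt7*, *Syt11*, *Syt13*, *Syt17*, *Doc2a* and *Doc2b*. They were chosen by symbol for the role of their proteins, and are 10 of the 37303 genes in the deposited gene table. All 10 genes were found there once. RNA-Seq had been done on cerebral cortex of 1 wild-type (WT) and 1 *Rbfox3*-/- (KO) library, labelled as strain B6. The labels give cerebral cortex as the source of both libraries, but their extraction note speaks of cortex or hippocampus. By the methods of the study, the mice were males at P56 and the right cortical hemisphere was taken. KO mice were homozygous for the tm1a(EUCOMM)Hmgu allele on C57BL/6N, bred from heterozygous parents, and WT mice were littermates. The allele is carried by all cells of the animal, and no treatment is named for either group. How many mice gave RNA to a library is not given in the sources used here.

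Synaptotagmins and Doc2 proteins carry a pair of C2 domains, folds that in many members bind calcium and then insert into phospholipid membranes. Several of them couple the entry of calcium at the nerve terminal to SNARE-driven membrane fusion. Members differ in calcium affinity and speed, so that some serve fast release locked to the action potential and others serve delayed or spontaneous release. Several members bind little or no calcium and act in the traffic of vesicles or of other membranes. RBFOX3, known to neuroscientists as NeuN, is a nuclear RNA-binding protein of neurons, and proteins of its family recognise TGCATG in RNA, where T stands for U.

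*Rbfox3* reached 57.3 FPKM in WT and, in KO, 6.46 FPKM, in the direction of the labels. FPKM scales the number of sequenced fragments by transcript length and by the size of the library, so that levels of different genes can be compared within a library. Each genotype has a single library, so the variation among mice is unknown, no test between genotypes exists, and all differences given here are between these 2 libraries. In bulk tissue, fewer cells of a type and less RNA per cell cannot be told apart. Defining genes of cortical excitatory neurons were present in both libraries, the 7 of the list summing to 1310 FPKM in WT against 1293 FPKM in KO, with 5 higher and 2 lower in KO. The summed level of 8 striatal neuron genes was 205 FPKM in WT against 75.4 FPKM in KO, that of 6 oligodendrocyte genes 1470 and 1004 FPKM, and that of 9 immediate early genes 115 and 382 FPKM. Of these lists, 5 of 8 striatal genes were 2-fold lower and 8 of 9 immediate early genes 2-fold higher in KO, while all 6 oligodendrocyte genes had lower values in KO without reaching 2-fold. The 4 choroid plexus genes, of which 2 passed a mean of 1 FPKM, summed to 226 FPKM in WT and to 4.84 FPKM in KO. Most of both sums came from a single gene, and the 2 genes that passed were both 2-fold lower in KO. No gene of any marker list was at 0 in either library. The part of these differences in the values of the synaptotagmin and Doc2 genes was not tested.

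To show where the RBFOX recognition sequence lies in these RNAs, the longest protein-coding transcript of each gene in GENCODE M21 was searched for TGCATG on the RNA strand. Of the 10 transcripts, 8 held at least 1 TGCATG, and 8 held it in the 3' untranslated region. *Syt5* and *Syt17* held none. Over all 21901 protein-coding genes, 51.6% of the longest transcripts held a TGCATG and 30.7% held it in the 3' untranslated region. This last share was not matched for length, and the 3' untranslated regions of the 10 transcripts ran from 333 bases (*Syt5*) to 5468 bases (*Syt2*). Longer transcripts hold more sites by their length alone, so like-length transcripts were compared: the 10 transcripts held 15 sites, and transcripts within 10% of the length of each gave a mean that sums to 12.7 sites. The share of like-length transcripts with at least 1 site ran from 36.9% for *Syt5* to 84.8% for *Syt2*. A match describes the sequence and does not show binding. Introns were not searched. Both sites of *Doc2b*, 2 of the 3 sites of its paralog *Doc2a*, and the sites of *Syt1*, *Syt7* and *Syt11* are printed. Each is given with 10 bases on either side and TGCATG in capitals.

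*Doc2b*, 5' untranslated region, chr11:75795881-75795906 (GRCm38, minus strand): cggcgctgccTGCATGaccctccggc
*Doc2b*, 3' untranslated region, chr11:75769283-75769308 (minus strand): aatctcccgaTGCATGgactctggct
*Doc2a*, coding sequence, chr7:126849257-126849282 (plus strand): tcaggcttccTGCATGctgcactgta
*Doc2a*, 3' untranslated region, chr7:126852619-126852644 (plus strand): ggggacattgTGCATGtttacgcctt
*Syt1*, 3' untranslated region, chr10:108499674-108499699 (minus strand): ttatgtgtggTGCATGcctttgttcg
*Syt7*, 3' untranslated region, chr19:10449379-10449404 (plus strand): actcaccgtgTGCATGgccttccaac
*Syt7*, 3' untranslated region, chr19:10451833-10451858 (plus strand): tagagaatatTGCATGccccaggtca
*Syt11*, 3' untranslated region, chr3:88747424-88747449 (minus strand): accttatactTGCATGtctaatacaa

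*Syt4* held 1 site, in the 3' untranslated region. *Syt2* held 3 sites and *Syt13* held 2, of which 1 was coding. *Doc2a* had the most sites for its length, 1.18 per kilobase, against 0.291 per kilobase over all longest transcripts. Of transcripts within 10% of the length of that of *Doc2a*, 49.2% held at least 1 site. For *Doc2b* this share was 70.7%, and for *Syt1* it was 74.2%.

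The order of the 10 genes by level was the same in WT and KO cortex, and their WT levels lay between the 28.5th percentile (*Doc2b*) and the 99.5th percentile (*Syt1*) of the measured genes. *Syt1* was the most abundant, followed by *Syt11*, *Syt4*, *Syt5*, *Syt13*, *Syt7*, *Syt17*, *Doc2a*, *Syt2* and *Doc2b*. The 10 genes together were at 890 FPKM in WT against 1049 FPKM in KO, a KO to WT ratio of 1.18. *Syt1* made up 52.0% of this sum in WT and 53.5% in KO. Without *Syt1* the ratio of the sums was 1.14. Neighbours in this order were close at several places. *Syt5* was at 55.5 FPKM and *Syt13* at 45.7 FPKM in WT, and they were at 54.0 and 48.6 FPKM in KO. *Syt2* and *Doc2b* were at 5.34 and 4.63 FPKM in WT, so their order there rests on less than 1 FPKM, whereas in KO they were at 6.18 and 1.89 FPKM. Whether such neighbours differ beyond the spread between animals cannot be determined from 1 library each.

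**Figure D1:**
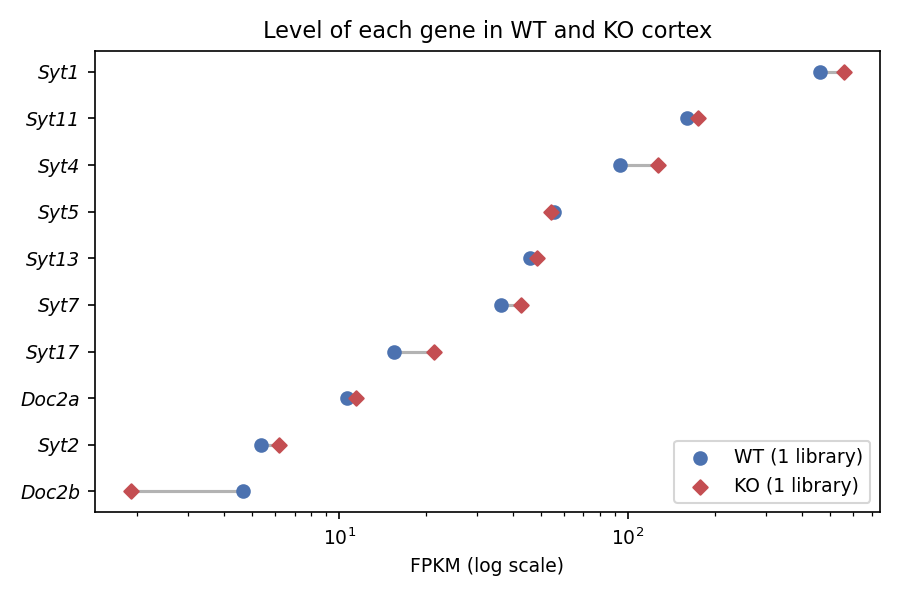
Level of each gene in FPKM (log scale) in the WT library (circles) and the KO library (diamonds), ordered by WT level. *Syt1* is highest, at 463 and 561 FPKM, and *Doc2b* is lowest and has the widest gap, from 4.63 to 1.89 FPKM.

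No gene of the group reached a 2-fold difference when 1 FPKM was added to both values before the log2 ratio of KO over WT was taken. *Doc2b* came closest, with a log2 ratio of -0.96, just inside the limit of -1. Over the 13042 measured genes, those whose mean of both libraries was 1 FPKM or more, 0.491% were 2-fold higher in KO and 0.583% were 2-fold lower. Of the 10 genes, 8 had a ratio above 0 and 2 below 0, against 54.4% above 0 among all measured genes. Their median log2 ratio was 0.15, and that of all measured genes was 0.02. Within 1.25-fold lay 7 of the 10 genes, against 87.5% of all measured genes, and the other 3 were *Syt4* and *Syt17*, higher in KO, and *Doc2b*, lower in KO.

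**Figure D2:**
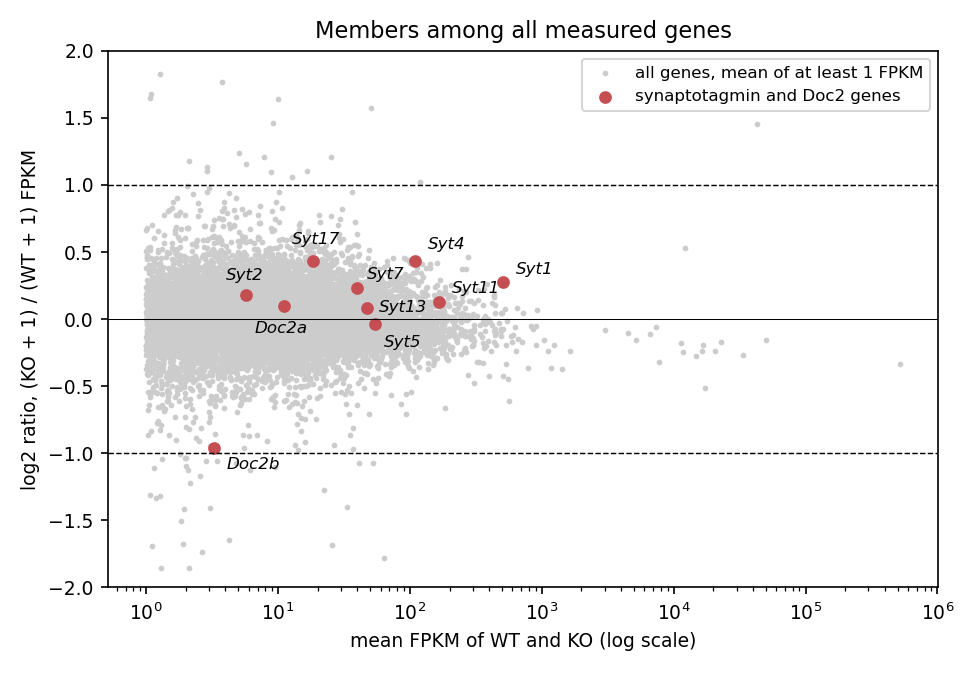
Log2 ratio of KO over WT, with 1 FPKM added to both, against mean FPKM (log scale) for the measured genes, with dashed lines at a 2-fold difference. The synaptotagmin and Doc2 genes (red) lie between -0.96 (*Doc2b*) and 0.43 (*Syt4* and *Syt17*), and 89 genes lie beyond the axis limits of 2.

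*Syt1* and *Syt2* encode the fast calcium sensors of synchronous transmitter release. *Syt1* (ENSMUSG00000035864, chromosome 10 of GRCm38, 108497650 to 109010982, minus strand) serves most forebrain synapses. It had 463 FPKM in the WT library and 561 FPKM in the KO library. This is a KO to WT ratio of 1.21 and a log2 ratio of 0.28, and 9.73% of all measured genes had a ratio at least as high. *Syt2* (ENSMUSG00000026452, chromosome 1, 134646677 to 134762593, plus strand) has the same role in the hindbrain and in the terminals of parvalbumin interneurons of the cortex. It stood at 5.34 FPKM in WT against 6.18 FPKM in KO, with a log2 ratio of 0.18. *Pvalb*, the calcium buffer that names these interneurons, reached 28.9 FPKM in WT and, in KO, 36.3 FPKM, the highest ratio among 8 inhibitory neuron genes. Of these 8 genes, 6 had a ratio above 0. The 2 below 0 were *Sst*, at 167 and 132 FPKM, and *Npy*, at 102 and 81.6 FPKM. The 8 genes together were at 501 FPKM in WT against 486 FPKM in KO. Both fast sensors were thus slightly higher in the KO library, and their proportion to each other hardly differed. *Syt1* exceeded *Syt2* 86.8-fold in WT and 90.8-fold in KO.

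*Syt5* (ENSMUSG00000004961, chromosome 7, 4539765 to 4547541, minus strand) encodes a further calcium-binding synaptotagmin of secretory vesicles. It had 55.5 FPKM in the WT library and 54.0 FPKM in the KO library. Its log2 ratio of -0.04 was the nearest to 0 in the group. The ratio of *Syt1* to *Syt5* was 8.34 in WT and 10.4 in KO.

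The high-affinity sensors *Syt7*, *Doc2a* and *Doc2b* differed among themselves, *Doc2b* being the only one of the 3 that was lower in the KO library. Their proteins respond to low calcium, SYT7 serving asynchronous release and facilitation, and the soluble DOC2 proteins serving spontaneous and asynchronous release. *Syt7* (ENSMUSG00000024743, chromosome 19, 10389090 to 10453180, plus strand) stood at 36.2 FPKM in WT against 42.8 FPKM in KO, a log2 ratio of 0.23. In exons it is overlapped by *Gm26859* of the opposite strand over 384 bases. *Doc2a* (ENSMUSG00000052301, chromosome 7, 126847416 to 126852705, plus strand) reached 10.6 FPKM in WT and, in KO, 11.5 FPKM, a log2 ratio of 0.10. In exons, *Doc2a* overlaps *Ino80e* of the opposite strand by 1103 bases, and whether strand was used in counting is not stated.

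*Doc2b* (ENSMUSG00000020848, chromosome 11, 75768966 to 75796049, minus strand) had 4.63 FPKM in the WT library and 1.89 FPKM in the KO library. Without the added FPKM this is 2.45-fold lower in KO, and with 0.1 FPKM added the log2 ratio was -1.25, past the 2-fold limit. Its log2 ratio of -0.96 was the 79th lowest of the 13042 measured genes. Among the 4166 genes with a mean of 2 to 8 FPKM, a band set after the value was seen, 30 had a ratio as low, and the central 95% lay between -0.49 and 0.51. *Doc2b* is listed with 1 isoform, so its difference cannot be divided among transcripts. Of its exons, 241 bases are overlapped on the opposite strand by *Gm12339*, and the same limit on strand applies. The loci deposited with *Doc2a* and *Doc2b* reach beyond the annotated genes, to 126865377 on chromosome 7 and to 75825241 on chromosome 11. Which exons were counted within these loci is not given.

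Since both Doc2 genes were measured in the same libraries, their proportion does not depend on the scaling between libraries. There was 2.29 times as much *Doc2a* as *Doc2b* RNA per length in WT and 6.06 times as much in KO. The ratio of *Syt7* to *Doc2b* was 7.82 in WT and 22.6 in KO, whereas that of *Syt7* to *Doc2a* was 3.41 in WT and 3.73 in KO. The balance among the high-affinity sensors thus differed between the libraries in its *Doc2b* part. Beside *Doc2b*, the genes with the most similar values in both libraries, by distance on the log2 scale over the 2 libraries, were *Arhgap6* (4.37 and 1.79 FPKM), *Cd59a* (4.56 and 2.07 FPKM) and *Zfp688* (5.01 and 1.89 FPKM). The striatal list, summed at 205 FPKM in WT against 75.4 FPKM in KO, was lower in the same library as *Doc2b*, and all 8 of its genes had a ratio below 0. Whether striatal tissue has a part in the *Doc2b* value was not tested.

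*Syt4* and *Syt11* encode related vesicle proteins that in mammals bind calcium weakly, since an aspartate of the first C2 domain that holds calcium in SYT1 is a serine in them. *Syt4* (ENSMUSG00000024261, chromosome 18, 31437808 to 31447406, minus strand) is present on dense-core vesicles, and in the rat its RNA is known to increase after strong neuronal activity. It stood at 93.6 FPKM in WT against 127 FPKM in KO. This is a KO to WT ratio of 1.35 and a log2 ratio of 0.43, and 3.33% of all measured genes had a ratio at least as high. In the same libraries all 9 immediate early genes had a ratio above 0, with *Fos* at 3.22 FPKM in WT against 29.6 FPKM in KO, and their part in the *Syt4* value was not tested. *Syt4* is overlapped in exons on the opposite strand by *Gm26658* over 566 bases. *Syt11* (ENSMUSG00000068923, chromosome 3, 88744700 to 88775164, minus strand), a regulator of endocytosis, reached 160 FPKM in WT and, in KO, 175 FPKM, a log2 ratio of 0.13. The ratio of *Syt4* to *Syt11* was 0.586 in WT and 0.723 in KO.

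*Syt13* and *Syt17* encode members of the family that are not thought to act as calcium sensors. *Syt13* (ENSMUSG00000027220, chromosome 2, 92915098 to 92956058, plus strand) had 45.7 FPKM in the WT library and 48.6 FPKM in the KO library, a log2 ratio of 0.08. *Syt17* (ENSMUSG00000058420, chromosome 7, 118380717 to 118448222, minus strand), also called B/K protein, has no membrane-spanning segment. It stood at 15.5 FPKM in WT against 21.3 FPKM in KO. Its KO to WT ratio of 1.37 was the highest of the 10 genes, and 3.24% of all measured genes had a log2 ratio at least as high as its 0.43. *Syt17* and *Syt4* thus had nearly the same ratio at levels that differed several-fold.

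Isoform proportions could be compared for *Syt1*, *Syt7*, *Syt11* and *Doc2a*, and the 6 other genes are listed with 1 isoform each. The isoform table gives no transcript identifiers, so isoforms are numbered here by their WT level. The difference in proportions of a gene was taken as 0.5 times the summed absolute differences of isoform shares, where 0 means equal shares. None of the 4 genes reached 0.2, a limit reached by 11.3% of the 8677 genes that have several isoforms and that pass 1 FPKM in each library. The median of the 4 genes was 0.116 and that of all such genes was 0.0656, without matching for the number of isoforms. Of all such genes, 17.3% had a difference at least as large as *Doc2a*, 26.8% as *Syt11*, 29.7% as *Syt7* and 69.6% as *Syt1*. Isoform FPKM divides reads that several isoforms share by an estimate, and the error of this division is not known here.

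*Doc2a*, with 8 isoforms, had the largest shift of the 4 genes, 0.160. Without isoforms under 1 FPKM in both libraries, *Doc2a* had a shift of 0.135, which was still the largest. Its isoform 1 reached 4.70 FPKM in WT and, in KO, 4.15 FPKM, and its isoform 3, with the largest difference in share, had 2.40 FPKM in the WT library and 3.73 FPKM in the KO library. The share of isoform 3 was 22.6% in WT and 32.6% in KO. *Syt11* had a shift of 0.121. Its isoform 1 stood at 130 FPKM in WT against 163 FPKM in KO, or 81.4% and 93.0% of the gene. Its isoform 2 reached 29.3 FPKM in WT and, in KO, 11.4 FPKM, or 18.3% and 6.52%. The gene as a whole was thus slightly higher in KO while its second isoform was at 0.389 times its WT level.

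*Syt7*, whose transcripts are known to differ in the linker between the membrane segment and the C2 domains, had a shift of 0.112. Isoform 1 had 16.8 FPKM in the WT library and 21.8 FPKM in the KO library. Isoform 2 made up 33.1% of the gene in WT and 39.9% in KO, and isoform 3 stood at 7.38 FPKM in WT against 3.93 FPKM in KO. The share of isoform 3 was 20.4% in WT and 9.17% in KO, with both other isoforms taking larger shares in KO. *Syt1* kept the most even proportions, with a shift of 0.0328. Its isoform 1 reached 381 FPKM in WT and, in KO, 447 FPKM, or 82.4% and 79.8%, and its isoform 3 was at 34.3 and 59.9 FPKM, or 7.42% and 10.7%. Isoforms 4 to 6 of *Syt1* were each under 0.5% of the gene in both libraries.

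**Figure D3:**
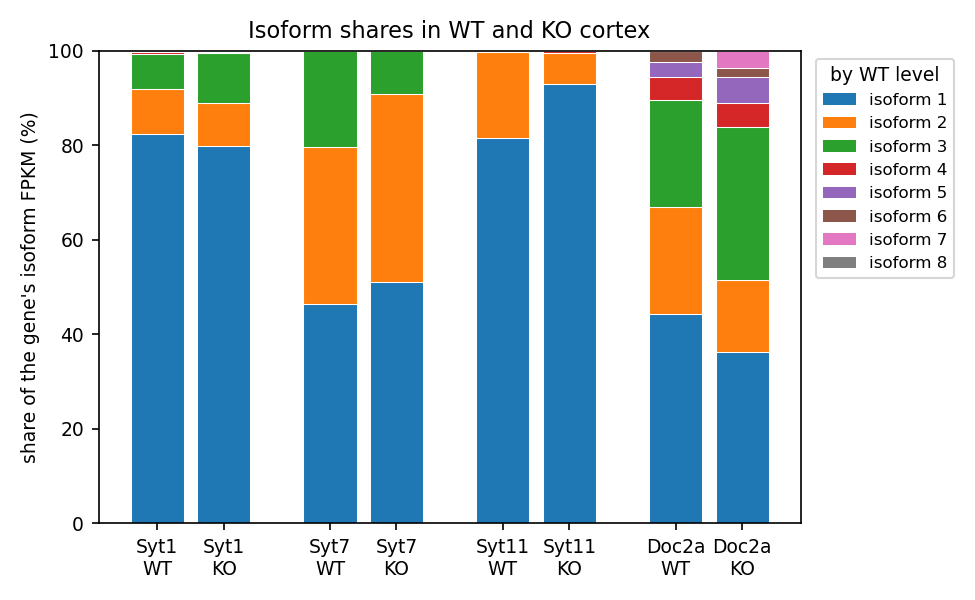
Share of each isoform in the isoform FPKM of its gene (%), as stacked bars for the WT and the KO library, with isoforms numbered by WT level. Isoform 2 of *Syt11* takes 18.3% in WT and 6.52% in KO and isoform 3 of *Syt7* takes 20.4% and 9.17%, while the bars of *Syt1* are alike.

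The wider family and the fusion machinery with which these proteins act held no gene with a 2-fold difference. Of 20 other synaptotagmins and C2 relatives, 12 passed the limit on low values, and 5 of them had a ratio above 0 and 7 below 0. Their median log2 ratio was -0.06. Over all measured genes, 54.4% had a ratio above 0, the median was 0.02, and 0.491% and 0.583% were 2-fold higher and lower. The highest were *Syt14*, at 2.91 FPKM in WT against 4.46 FPKM in KO, and *Syt10*, at 3.82 and 4.65 FPKM. The lowest were *Otof*, the calcium sensor of inner hair cells, at 3.79 and 2.58 FPKM, and *Syt3*, at 10.8 and 8.69 FPKM. *Doc2g*, the third Doc2 gene, was below the limit, at 1.05 FPKM in WT against 0.438 FPKM in KO.

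All 22 genes of the release machinery were measured, with 13 above 0, 9 below 0 and a median log2 ratio of 0.03. Among all measured genes, 54.4% were above 0. *Unc13b*, which encodes a vesicle priming factor, was highest, at 19.8 FPKM in WT against 24.2 FPKM in KO, followed by *Rims2* of the active zone, at 13.0 and 15.4 FPKM. *Vamp1*, a vesicle SNARE, was lowest, at 40.0 FPKM in WT against 25.5 FPKM in KO, and *Snap25*, the SNARE to which SYT1 binds, was at 1326 and 1030 FPKM. *Vamp2*, the main vesicle SNARE of the forebrain, had 407 FPKM in the WT library and 461 FPKM in the KO library. The abundant sensor *Syt1* was thus higher in the library in which the SNARE gene *Snap25* was lower. Among the measured genes of these lists none reached the log2 ratio of *Doc2b*, the lowest being -0.42 for *Otof* and -0.63 for *Vamp1*. Below the limit on low values, *Doc2g* had a log2 ratio of -0.51, and without the added FPKM its KO to WT ratio was 0.417, beside 0.408 for *Doc2b*. This ratio was 1.08 for *Doc2a*. Of the other genes below the limit, *Sytl4* had a KO to WT ratio of 0.421, at 0.404 FPKM in WT against 0.170 FPKM in KO. *Sytl1* went the other way by less, with a ratio of 1.41, at 0.143 and 0.201 FPKM. Both genes lay at lower levels than *Doc2b*.

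**Figure D4:**
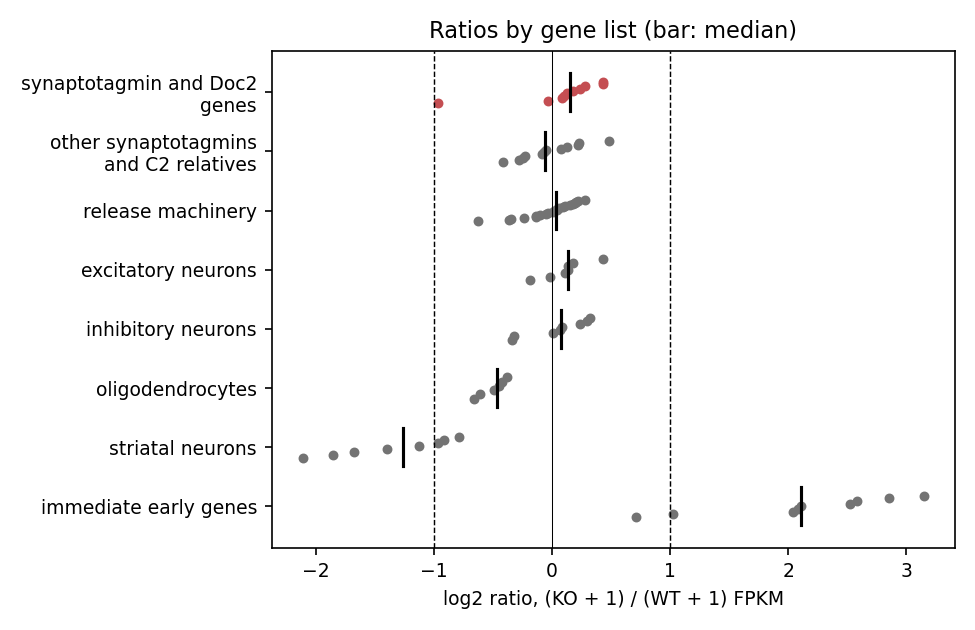
Log2 ratios of KO over WT, with 1 FPKM added to both, for the measured genes of each list; points are genes, bars are medians and dashed lines mark a 2-fold difference. Of the first 3 lists only *Doc2b*, at -0.96, comes near a dashed line, whereas the striatal genes lie at a median of -1.26 and the immediate early genes at 2.11.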

How the data were processed

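Cortical RNA of 1 WT and 1 KO library was measured. The deposited gene and isoform tables hold FPKM values that the authors made with TopHat and Cufflinks on GRCm38; versions, the use of strand and the scaling between libraries are not given in the sources used here. The labels name a NucleoSpin kit and the methods an RNeasy kit. The deposited p-values, q-values, ratios, gene lists and term lists are the authors' comparisons and were not used.

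Log2 ratios were computed after adding 1 FPKM to both values, for genes whose mean was 1 FPKM or more (measured genes), and a ratio of 1 in size was the limit for a 2-fold difference. No p-value was computed. FPKM hides depth: among 1951 low genes with 1 isoform the most frequent KO to WT ratio was 0.880, and counting intervals are not given. The members and lists were chosen with earlier results of these data known. Genes were named by rule: all members, the 2 highest and 2 lowest of each pathway list, the 3 genes nearest to *Doc2b*, and for each gene with several isoforms the most abundant one and the one with the largest share difference. *Vamp2*, *Doc2g*, *Sytl4*, *Sytl1*, *Pvalb*, *Sst*, *Npy*, *Fos*, further isoforms and the genes named in the closing section were picked after their values were seen. Positions and transcripts are those of GENCODE M21 (GRCm38). Calculations used Python 3.11.15 with pandas 2.3.3 and numpy 2.4.6. They were tested on the WT values changed by known folds and known isoform shares, without noise. That test covers the arithmetic only. A few items of the lists and 1 site are not reported here.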

Additional observations from a re-analysis of the deposited data

How the results depend on the processing

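Of 68 values recomputed under the alternatives, 66 kept their direction and their side of the limit, or moved by less than the tolerance set for them (0.1 on the log2 scale for medians and sums, 1.5-fold for counts). The 2 exceptions both concern *Doc2b*: with 0.1 FPKM added in place of 1, its log2 ratio was -1.25, and the number of members with a 2-fold difference was 1 in place of 0. With this added value 0.874% of all measured genes were 2-fold lower. By construction a smaller added value damps low genes less. The 66 include values that could not change. Isoform sums returned the gene values to within rounding. Leaving out the filter on low values could not alter the member values, since all 10 members pass it. A mean of at least 5 FPKM left out *Doc2b*, the gene nearest the limit, whose mean was 3.26 FPKM. As deposited, and with KO scaled to a median ratio of 0 or to the same 75th percentile, *Doc2b* ranged from -0.98 to -0.96. *Syt4* ranged from 0.40 to 0.43. For these genes isoform sums are no alternative, since each is listed with 1 isoform. No paired analysis was possible because each genotype has 1 library. No library could be left out for the same reason, and the precision that depth gives is not known.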

Other observations

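Further groups of calcium-responsive proteins were looked at. Their lists were drawn up once results for the synaptotagmins were known, without sight of the values of the listed genes. Copines are soluble proteins with a pair of C2 domains that bind membranes when calcium enters the cell. All 9 copine genes were measured, and 7 of them had a ratio below 0, with a median log2 ratio of -0.18. Among all measured genes, 54.4% had a ratio above 0 and the median was 0.02. The lowest were *Cpne7*, at 13.7 FPKM in WT against 8.63 FPKM in KO, *Cpne6*, at 42.9 and 29.0 FPKM, and *Cpne4*, at 24.5 and 16.8 FPKM. None reached a 2-fold difference.

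Of 17 neuronal calcium sensors built on EF-hands, the other main calcium-binding fold, 11 had a ratio below 0 and 6 above 0, with a median of -0.12. *Hpcal1*, which encodes a neuronal calcium sensor of the hippocalcin family, reached 31.8 FPKM in WT and, in KO, 12.6 FPKM, and was the only gene of this list with a 2-fold difference. Over all measured genes, 54.4% were above 0 and 0.583% were 2-fold lower in KO. *Kcnip4*, a subunit of potassium channels, had 45.1 FPKM in the WT library and 59.4 FPKM in the KO library. Among 12 genes of C2 domain kinases, phospholipases and Ras regulators, 8 were above 0 and 4 below 0, with *Rasal2* highest at 20.7 and 29.4 FPKM. With 1 library per genotype none of these differences has a replicate check.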
